A study of Mus musculus with 49 samples.

Results

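Macrophages are the resident phagocytes of the spleen, where they clear aged red cells, recycle iron, and make complement proteins that tag debris. They grow and survive through CSF1R, the receptor for CSF1 and IL-34, and their identity depends on the transcription factors PU.1 (*Spi1*) and, in the red pulp, SpiC. The expression of 10 macrophage genes was followed here in RNA-seq libraries of splenic CD8+ T cells, which do not normally make these transcripts in quantity. The 10 genes, of 23992 gene symbols in the files, were *Cd5l*, *Trem2*, *Tlr8*, *Csf1r*, *C1qa*, *C1qb*, *C1qc*, *Vcam1*, *Lyz2*, and *Cd68*, each read from its longest transcript. The members were chosen by function, but *Cd5l*, *Trem2*, and *Tlr8* were selected on their values at 48 hr, as being among the genes most raised in mutant cells, so the differences at 48 hr are given as a description, with no test. All 10 genes passed the filter on low counts, although *Trem2* and *Tlr8* had almost no reads in many groups and passed through the groups in which they were high. Counts of calls are therefore given over the other 8 genes, except in the section on processing. *Trem2* and *Tlr8* are given by their reads and levels, and no test of them is read.

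The libraries came from 2 mouse lines on a C57BL/6J background. In the *Stat5a* line, knock-in (KI) mice carried 2 copies of an allele that replaces tyrosine Y694 of STAT5A with phenylalanine (Y694F), and in the *Stat5b* line they carried 2 copies of Y699F of STAT5B. These are the tyrosines that JAK kinases phosphorylate after IL-2 binds its receptor. The wild-type (WT) mice of each line were littermates, and mice of both sexes were used. CD8+ T cells were taken from the spleen with a kit that removes the other cells by antibody, and were collected at once (0 hr) or after 4, 24, or 48 hr of culture in medium holding IL-2 at 500 IU/ml. IL-2 is the growth factor by which activated T cells expand. Each of the 16 groups of line, genotype, and time had 3 libraries, except the *Stat5a* KI cells at 4 hr, where replicate 3 was left out and 2 remained. That library held 1028515 reads on the longest transcripts, only 5.68% of its mapped reads, against 17369112 to 60200653 reads (median 41410666) in the 47 libraries used. The labels do not say whether the replicates of a group came from separate mice, and nothing in the sources used here says whether cells of several mice were pooled for a library. The KI alleles were designed to change an amino acid, so the mRNA levels of *Stat5a* and *Stat5b* were not taken as a check of the labels.

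The tissue label held in all 47 libraries: the 12 T cell genes, among them *Cd8a* and *Cd3e*, had a summed RPKM (the read count scaled to transcript length and mapped reads, a level that can be compared between genes) of 1481 to 3133. The 10 macrophage genes together had 3.14 to 195.7, so their transcripts were a small part beside those of T cells in every library. In bulk RNA, fewer macrophages, less RNA per macrophage, and more RNA of the other cells cannot be told apart. Some libraries stood apart from their groups. In the *Stat5a* line, replicate 2 of the WT cells at 4 hr had 44.9% of its mapped reads on the longest transcripts, against 68.7% to 84.4% in the others used. Replicate 3 of the *Stat5a* WT cells was the lowest of its group for 9 of 10 macrophage genes at 0 hr and at 24 hr, and for all 9 genes above 0 at 48 hr. Replicate 1 of the *Stat5a* KI cells was the highest for all 9 genes above 0 at 0 hr and at 4 hr, for all 10 at 24 hr, and for 9 of 10 at 48 hr. Where the calls in the *Stat5a* line rested on 1 of these libraries, the counts without it are given.

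The positions given are those of mm10/GRCm38. The 3 chains of C1q are neighbours on chromosome 4, in 18719 bases from 136880126 to 136898844. *Cd5l* lies at 87357881 to 87371074 and *Vcam1* at 116110020 to 116129688 of chromosome 3. *Lyz2* lies at 117277541 to 117282272 of chromosome 10, *Cd68* at 69664213 to 69666170 of chromosome 11, *Trem2* at 48346401 to 48352276 of chromosome 17, and *Tlr8* at 167241123 to 167264329 of chromosome X. RefSeq promoter windows of GRCm38.p6 matched 7 of the 10 genes by symbol, all but *C1qa*, *Csf1r*, and *Vcam1*. PU.1 binds DNA at a core of GAGGAA, and these letters, searched on both strands, occur in the 250 bases before the start of 6 of the 7 genes (all but *Lyz2*) and in 23.3% of the 32851 promoter windows of the same length. The letters TTCNNNGAA, the core of STAT sites, occur before *Tlr8* alone of the 7 and in 7.02% of all windows, and do not overlap the GAGGAA there. A match is a description and not a binding site, and the search was made with the genes already known. The 150 bases before the start of the 4 genes in which GAGGAA lies closest are shown for the place of that core, 5′ to 3′ in the direction of transcription, with GAGGAA in capitals, or TTCCTC where the core is on the other strand. They are *Cd5l* (chr3:87357731-87357880, plus strand), *Trem2* (chr17:48346251-48346400, plus strand), *Tlr8* (chrX:167264330-167264479, minus strand), and *C1qb* (chr4:136886201-136886350, minus strand).
Cd5l: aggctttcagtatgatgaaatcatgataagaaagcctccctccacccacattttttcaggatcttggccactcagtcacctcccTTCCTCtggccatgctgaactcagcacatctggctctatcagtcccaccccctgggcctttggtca
Trem2: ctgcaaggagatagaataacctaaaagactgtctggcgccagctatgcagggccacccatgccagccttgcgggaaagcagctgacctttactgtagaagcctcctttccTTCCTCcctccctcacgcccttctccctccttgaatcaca
Tlr8: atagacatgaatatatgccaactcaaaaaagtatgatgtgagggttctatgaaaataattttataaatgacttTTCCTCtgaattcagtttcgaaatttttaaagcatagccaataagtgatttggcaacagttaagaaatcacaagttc
C1qb: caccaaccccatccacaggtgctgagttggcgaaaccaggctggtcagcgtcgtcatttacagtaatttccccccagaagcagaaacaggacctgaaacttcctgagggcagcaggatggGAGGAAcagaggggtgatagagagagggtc

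The secreted proteins come first. *Cd5l* encodes AIM, an inhibitor of macrophage apoptosis that is bound to IgM in serum and made chiefly by tissue macrophages. In *Stat5b* KI cells its RPKM was 3.18, 3.72, and 3.25 at 0 hr, 1.12, 0.869, and 0.956 at 4 hr, 6.69, 4.11, and 4.64 at 24 hr, and 9.38, 5.35, and 9.54 at 48 hr. In the WT cells of this line it was 0.523, 0.497, and 0.814 at 0 hr, 0.216, 0.122, and 0.2 at 4 hr, 0.289, 0.176, and 0.211 at 24 hr, and 0.0313, 0.0168, and 0.0364 at 48 hr. KI and WT libraries did not overlap at any time, and only the KI level passed its own starting level. At 48 hr the mean of the KI cells was 239.4% of their 0 hr mean, and that of the WT cells was 4.61%. *Stat5a* KI cells had 3.8, 2.44, and 2.17 at 0 hr, 1.45 and 0.365 at 4 hr, 8.44, 1.45, and 0.829 at 24 hr, and 4.44, 1.32, and 1.13 at 48 hr. Their WT littermates had 1.19, 1.2, and 0.487 at 0 hr, 0.274, 0.101, and 0.0441 at 4 hr, 0.656, 0.447, and 0.123 at 24 hr, and 0.0778, 0.0254, and 0.00716 at 48 hr. KI and WT libraries of this line did not overlap either, but the high value of 8.44 was that of replicate 1 alone.

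C1q, the recognition protein of the classical complement pathway, is assembled from the products of *C1qa*, *C1qb*, and *C1qc*, and macrophages are a main source. The RPKM of *C1qa* in *Stat5b* KI cells was 14.9, 12.1, and 10.1 at 0 hr, 1.09, 1.43, and 1.38 at 4 hr, 3.56, 2.81, and 2.94 at 24 hr, and 6.72, 3.82, and 6.29 at 48 hr. In the WT cells it was 1.62, 2.07, and 2.47 at 0 hr, 0.346, 0.181, and 0.189 at 4 hr, 0.206, 0.158, and 0.239 at 24 hr, and 0.0295, 0, and 0.0343 at 48 hr. The libraries of the 2 genotypes did not overlap at any time, and the WT libraries at 48 hr held 0 to 2 reads of the gene. *C1qa* in *Stat5a* KI cells was at 6.01, 0.918, and 0.973 at 24 hr and at 6.14, 1.08, and 1.31 at 48 hr, so that replicate 1 was several times above the others. In *Stat5a* WT cells it was at 0.955, 0.772, and 0.232 at 24 hr, within the range of which 1 KI library lay, and at 0.425, 0.255, and 0.0135 at 48 hr. In *Stat5b* KI cells the ratios between the 3 chains ran from 0.853 to 1.39. The ratio of *C1qb* to *C1qa*, from summed RPKM in *Stat5b* KI cells, was 0.853 at 0 hr, 1.10 at 4 hr, 0.948 at 24 hr, and 1.09 at 48 hr, and that of *C1qc* to *C1qa* was 1.04, 1.12, 1.22, and 1.39. Single libraries spread more, with 0.870 to 1.60 for *C1qc* to *C1qa* at 4 hr. In WT cells of this line, with 39 reads of *C1qa* at 24 hr, the ratio of *C1qb* to *C1qa* went from 0.787 (0.731 to 0.945 in single libraries) at 0 hr to 1.72 (1.70 to 1.75) at 24 hr. Other WT ratios moved less between these times. That of *C1qc* to *C1qa* was 1.15 and 1.33 in *Stat5b* WT cells, and that of *C1qb* to *C1qa* 0.800 and 0.964 in *Stat5a* WT cells. *Cd5l* did not keep to the 3 chains, with a ratio to *C1qa* of 0.273 (0.214 to 0.321 in single libraries) at 0 hr, 0.753 (0.606 to 1.02) at 4 hr, 1.66 (1.46 to 1.88) at 24 hr, and 1.44 (1.40 to 1.52) at 48 hr in *Stat5b* KI cells, and of 0.264, 0.638, 1.36, and 0.808 in *Stat5a* KI cells. This ratio rose in WT cells too. In *Stat5b* WT cells it was 0.298 (0.240 to 0.330) at 0 hr, 0.75 (0.624 to 1.06) at 4 hr, and 1.12 (0.885 to 1.40) at 24 hr. In *Stat5a* WT cells it was 0.228, 0.681, and 0.626 at these times. *Stat5b* WT cells held 44 reads of *C1qa* at 4 hr and 39 at 24 hr.

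The receptors differed among themselves. *Trem2* encodes a receptor for lipids and lipoproteins of macrophages that are taking up debris. It was listed at 0 in all 5 *Stat5a* KI libraries at 0 and 4 hr and held 0 to 3 reads in each of the other libraries at these times. In *Stat5b* KI cells its RPKM was 0.451, 0.404, and 0.543 at 24 hr and 1.31, 0.602, and 0.987 at 48 hr, while all 6 WT libraries of this line were listed at 0. Taking 3 reads per WT library as the floor, this is a difference of at least 11.8-fold at 24 hr and of at least 23.6-fold at 48 hr, with *Trem2* higher in KI cells. The RPKM in *Stat5a* KI cells was 0.428, 0.16, and 0.0866 at 24 hr and 0.219, 0.223, and 0.0435 at 48 hr, against 0, 0.0331, and 0.0146 and then 0.0277, 0.0301, and 0 in WT cells. With 41 KI and 3 WT reads over all libraries at 24 hr, the ratio was 13.8, with an exact 95% counting interval of 4.40 to 69.6. Of the 41 reads 26 were in replicate 1, and without it the ratio was 7.62 (2.16 to 41.1). *Trem2* was thus near or at 0 before culture, and it was seen in all 6 KI libraries at 24 hr and all 6 at 48 hr.

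*Tlr8* encodes an endosomal sensor of RNA. In *Stat5b* KI cells its RPKM was 0.185, 0.199, and 0.181 at 0 hr, 0.0341, 0.00578, and 0.0346 at 4 hr, 0.147, 0.0955, and 0.0754 at 24 hr, and 0.181, 0.0804, and 0.211 at 48 hr. In the WT cells it was 0.0515, 0.0515, and 0.0875 at 0 hr, and the libraries at later times held 0 or 1 read each. At 48 hr all 6 WT libraries of both lines were listed at 0, and with a floor of 3 reads per WT library *Tlr8* was higher in the KI cells by at least 10.7-fold (*Stat5b*) and at least 3.22-fold (*Stat5a*). At 24 hr the 54 reads of the *Stat5b* KI cells against 1 of the WT cells gave a ratio of 66.8 (exact 95% counting interval 11.5 to 2686). The gene was low throughout, and 20 of the 27 reads of the *Stat5a* KI cells at 48 hr were in replicate 1. These intervals and floors, like those of *Trem2*, hold for counting error alone, as PCR copies of 1 molecule could not be told from each other. The intervals pool the reads of a group, leave out the spread between its libraries, and are not read as tests.

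In *Stat5b* KI cells at 24 and 48 hr, *Cd5l* and *Trem2* lay above their 0 hr means, while *Csf1r*, the growth factor receptor, lay at 10.2% and 11.6% of its own. In *Stat5b* KI cells its RPKM was 12.3, 10.9, and 9.22 at 0 hr, 2.66, 2.01, and 1.94 at 4 hr, 1.31, 0.612, and 1.38 at 24 hr, and 1.52, 0.918, and 1.31 at 48 hr. In the WT cells it was 2.42, 2.46, and 3.11 at 0 hr, 0.5, 0.473, and 0.616 at 4 hr, 0.0616, 0.0264, and 0.0711 at 24 hr, and 0, 0.00884, and 0.0192 at 48 hr. The level at 48 hr was 11.6% of that at 0 hr in KI cells and 0.351% in WT cells, the lowest remaining share of any member above 0 in both. *Stat5a* KI cells had 12.5, 7.12, and 6.87 at 0 hr and 0.952, 0.333, and 0.326 at 48 hr, and in the WT cells 4.3, 4.2, and 2.09 at 0 hr and 0.0655, 0.0535, and 0.0113 at 48 hr. The ratio of *Csf1r* to *C1qa* in *Stat5b* KI cells was 0.872 at 0 hr, 1.69 (1.40 to 2.43 in single libraries) at 4 hr, 0.355 at 24 hr, and 0.223 at 48 hr. It took a like course in the WT cells of this line, at 1.30, 2.22 (1.45 to 3.27), and 0.264 at 0, 4, and 24 hr. These WT cells held 44 reads of *C1qa* at 4 hr and 39 at 24 hr.

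*Vcam1*, *Lyz2*, and *Cd68* are less restricted to macrophages. *Vcam1*, an adhesion molecule that splenic macrophages share with endothelial and stromal cells, was at an RPKM of 11 to 14.1 in *Stat5b* KI and of 2.44 to 3.04 in WT cells at 0 hr, and of 3.56 to 4.92 and 0.106 to 0.169 at 48 hr. *Lyz2*, the lysozyme of macrophages, monocytes, and neutrophils, was the most abundant member at 0 hr, at 60.9 to 99.2 in *Stat5b* KI and 14.9 to 17.6 in WT cells at 0 hr, and at 32.2 to 52 and 0.713 to 1.62 at 48 hr. Its close relative *Lyz1* could share reads with it. *Cd68*, a glycoprotein of lysosomes, had the lowest KI to WT ratio of the 8 genes at 24 and 48 hr, and was at 18.1 to 25.7 in *Stat5b* KI and 9.02 to 11.6 in WT cells at 0 hr, and at 11.5 to 16.9 and 2.33 to 2.43 at 48 hr. *Cd68* was the only member besides *Lyz2* that stayed above an RPKM of 0.5 in every library. At 0 hr in *Stat5b* KI cells *Lyz2* stood above *Cd68*, *Cd68* above the rest, then *C1qc*, *C1qa*, *Vcam1*, *Csf1r*, and *C1qb* within overlapping ranges (9.22 to 15), and *Cd5l*, *Tlr8*, and *Trem2* below them without overlap.

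**Figure D1:**
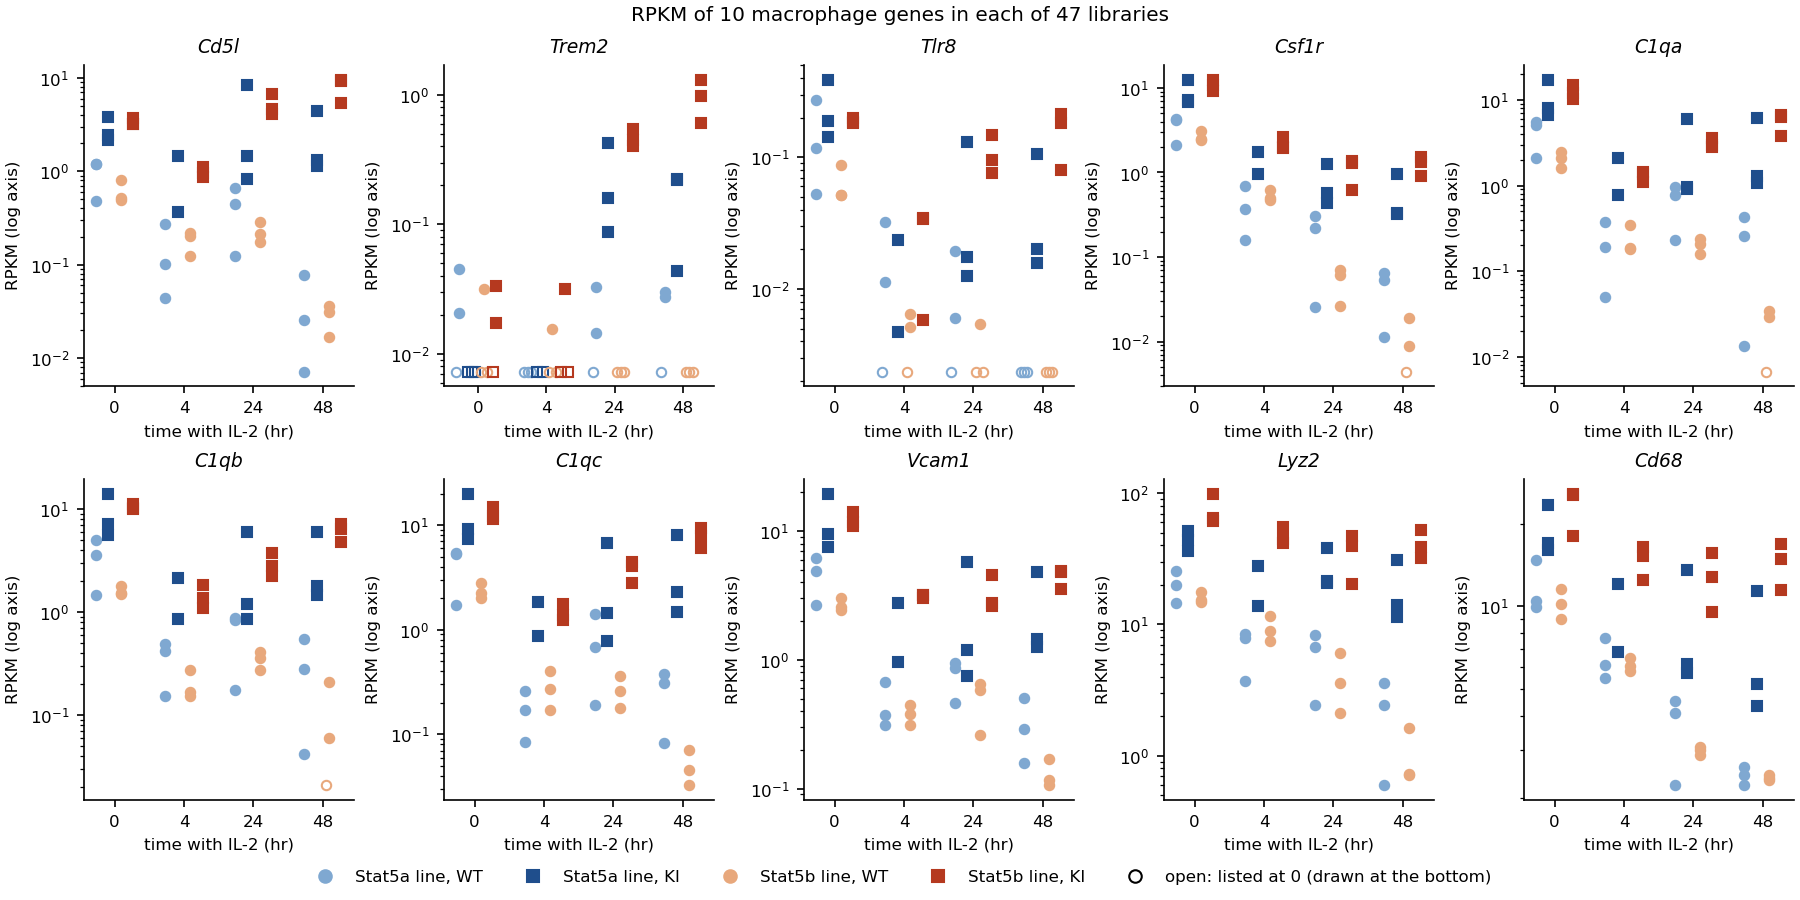
RPKM (log axis) of the 10 macrophage genes in each of the 47 libraries against time with IL-2 (0, 4, 24, and 48 hr), 1 point per library, with circles for WT and squares for KI cells of the *Stat5a* line (blue) and the *Stat5b* line (orange and red). Libraries listed at 0 are open points at the bottom of a panel. Squares lie above circles of the same line for all 10 genes at 48 hr, and *Trem2* is near 0 at 0 and 4 hr in all groups.

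The first comparison asked whether KI cells already differed from WT cells before culture. In the *Stat5b* line all 8 genes other than *Trem2* and *Tlr8* were higher in KI cells at 0 hr. Of the 15566 genes tested, 7.38% were called higher and 0.604% lower, where a call needed both an adjusted p up to 0.05 in edgeR's quasi-likelihood test and a change of 2-fold or more. The log2 fold changes of the 8 genes ran from 1.11 ± 0.29 (SE) for *Cd68* (edgeR adjusted p = 0.0054) to 2.64 ± 0.60 for *C1qb* (edgeR adjusted p = 0.0014). *Cd5l* had 2.40 ± 0.60 and *Csf1r* 1.95 ± 0.41. In the *Stat5a* line 0 of the 8 genes were called at 0 hr by edgeR's test, where 0.861% of all genes were called higher and 0.18% lower. Their log2 fold changes were positive, such as 1.53 ± 0.57 for *Cd5l* (edgeR adjusted p = 0.14) and 1.30 ± 0.40 for *Csf1r* (edgeR adjusted p = 0.061). Every KI library lay above every WT library for all 8, as for 13.1% of all genes tested. At an unadjusted p under 0.05 all 8 passed, as did 10.4% of all genes with a higher level in KI cells, and DESeq2's Wald test called 0. On log2(RPKM + 1) limma called 4, and on log2(RPKM + 0.1) it called 0. Over the 8 genes the median log2 fold change came to 1.35 (*Stat5a*) and 2.28 (*Stat5b*), against 0.004 and 0.012 over all genes tested.

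At 4 hr the 8 genes were again higher in KI cells of the *Stat5b* line (9.2% of all genes were called higher and 1.23% lower). *Vcam1* had a log2 fold change of 2.94 ± 0.57 (edgeR adjusted p = 0.00013) and *Lyz2* 2.23 ± 0.42 (edgeR adjusted p = 9.5e-05). Without replicate 2 of the WT cells, 5 were called, as with limma on log2(RPKM + 1). Of the *Stat5a* line 6 of the 8 genes were higher (2.47% of all genes were called higher and 4.16% lower), with 2.69 ± 0.84 for *C1qc*, 2.49 ± 0.83 for *C1qa*, and 2.38 ± 0.78 for *Cd5l*. *C1qb*, at 1.81 ± 0.77, and *Cd68*, at 0.19 ± 0.33, were not called. Without WT replicate 2 *C1qc* alone was called, and without WT replicate 3 *Lyz2* alone. Without KI replicate 1, 0 were called, but that fit has 1 KI library, assumed to vary like the other groups, against 3 WT libraries, so it says little of the calls. The KI library left had log2 fold changes of −0.22 (*Cd68*) to 2.13 (*C1qc*) and lay above every WT library for 7 of the 8 genes, all but *Cd68*. On log2(RPKM + 1) limma called 1 of the 8, and edgeR with only the groups compared called 0.

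At 24 hr the 8 genes were higher in KI cells of the *Stat5b* line, where 10.9% of all genes were called higher and 5.77% lower. *Cd5l* had a log2 fold change of 4.47 ± 0.67 (edgeR adjusted p = 6.8e-07), *Csf1r* 4.33 ± 0.58 (edgeR adjusted p = 1e-07), *C1qa* 3.91 ± 0.74, and *Cd68* 2.06 ± 0.31. All 8 calls held whichever library was left out. KI cells of the *Stat5a* line also had all 8 genes higher, where 3.21% of all genes were called higher and 1.24% lower. *Cd5l* had 3.07 ± 0.62 (edgeR adjusted p = 0.0006), *Lyz2* 2.15 ± 0.43 (edgeR adjusted p = 0.00047), and *Cd68* 1.17 ± 0.31. Without KI replicate 1 only *Lyz2* was still called, with a log2 fold change of 1.81, and *Cd5l* went to 1.45 (edgeR adjusted p = 0.0797) and *C1qa* to 0.50 (edgeR adjusted p = 0.7). Without WT replicate 3, *Cd5l* and *Lyz2* were called. Limma called the same pair on log2(RPKM + 1) and *Cd5l*, *Lyz2*, *Csf1r*, and *Cd68* on log2(RPKM + 0.1). With all 48 libraries edgeR called these 4, and with only the groups compared it called *Cd5l*, *Lyz2*, and *Cd68*. Every KI library lay above every WT library for 4 of the 8 genes, *Cd5l*, *Csf1r*, *Lyz2*, and *Cd68*, as for 28.2% of all genes tested.

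At 48 hr, the contrast by which *Cd5l*, *Trem2*, and *Tlr8* were picked, KI libraries lay above WT libraries for all 10 genes in both lines, as they did for 43.4% of all genes in the *Stat5b* and 34.2% in the *Stat5a* line. Of all genes, 16.5% were called higher in the *Stat5b* and 6.35% in the *Stat5a* line, and nothing is read from these shares here. The log2 fold change of *Cd5l* was 8.04 ± 0.87 (*Stat5b*) and 5.87 ± 0.84 (*Stat5a*), that of *C1qa* 7.84 ± 1.01 and 3.56 ± 0.72, that of *Csf1r* 6.97 ± 0.78 and 3.58 ± 0.62, and that of *Cd68* 2.52 ± 0.32 and 1.47 ± 0.32. The median over the 10 genes was 7.07 (*Stat5b*) and 3.45 (*Stat5a*), or 5.65 and 3.20 with the genes at 0 in WT cells set to their lower bounds. Without KI replicate 1, the *Stat5a* line had a median of 2.56, with 4.95 for *Cd5l*, 2.86 for *Csf1r*, 2.30 for *C1qa*, and 0.90 for *Cd68*. Fitted values of the *Stat5b* line rest on few WT reads. *C1qa* had 964 reads in KI and 4 in WT cells, a ratio of 290.7 per read on the longest transcripts, with an exact 95% counting interval of 113.2 to 1069. *Csf1r* had 769 and 6 reads, a ratio of 155 (70.7 to 423), and *C1qc* 1303 and 9, a ratio of 175 (91.7 to 383). *Cd5l* had 2619 and 10, a ratio of 316, given without an interval because the gene was picked on this contrast. The intervals pool the reads of a group, hold for counting error alone, and leave out the spread between libraries, so they are not read as tests.

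**Figure D2:**
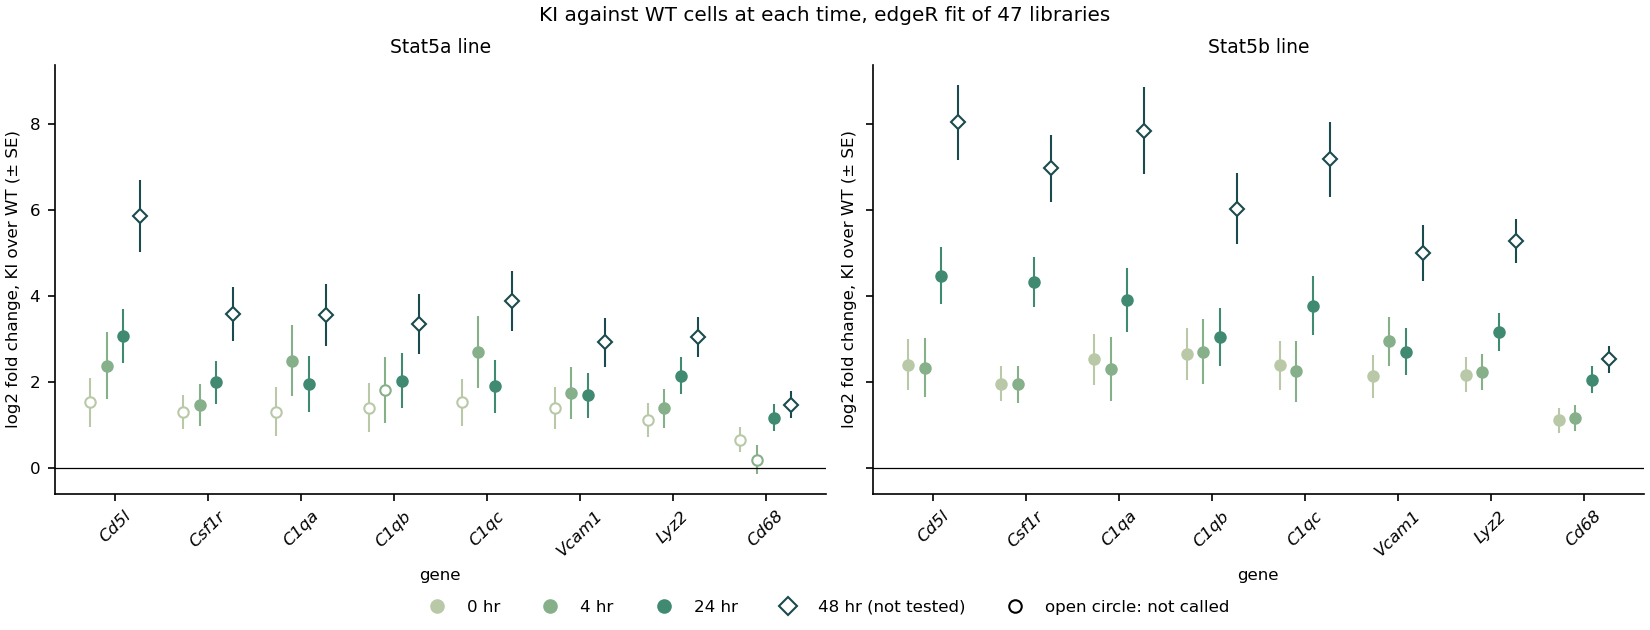
Log2 fold change of KI over WT cells (y axis, ± SE of the edgeR fit) of 8 macrophage genes in the *Stat5a* line (left) and the *Stat5b* line (right) at 0, 4, and 24 hr (circles, filled where called) and at 48 hr (diamonds, not tested). *Trem2* and *Tlr8*, with few reads in many groups, are not drawn. In the *Stat5b* line the values at 24 hr are called for all 8 genes, and in the *Stat5a* line 0 are called at 0 hr.

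The time courses followed the level of these transcripts in culture, relative to all mapped reads. From 0 to 4 hr the mean RPKM was lower in all 4 groups for all members but *Trem2*: in *Stat5b* KI cells it came to 10.5% of the 0 hr mean for *C1qa*, 20.4% for *Csf1r*, 29% for *Cd5l*, and 63.7% for *Cd68*, and in the WT cells of this line to 11.6%, 19.9%, 29.4%, and 59.6%. The shares of *Vcam1* were further apart, at 25.6% in KI and 14.2% in WT cells of this line. In the *Stat5a* line the KI and WT shares at 4 hr were 13.5% and 4.88% for *C1qa*, 32.5% and 14.6% for *Cd5l*, 15.2% and 11.5% for *Csf1r*, and 50.15% and 54.6% for *Cd68*, where the KI mean rests on 2 libraries (an RPKM of *C1qa* of 2.07 and 0.783). Between 0 and 24 hr, all 8 genes other than *Trem2* and *Tlr8* fell in *Stat5b* WT cells (13.5% of all genes were called lower). In *Stat5a* WT cells 7 were called lower (14.2%), all but *Cd5l*, at −1.41 ± 0.63 (edgeR adjusted p = 0.0508). Replicate numbers were taken to pair these *Stat5a* WT libraries, which this fit ignores. The RPKM of *Cd5l* was lower at 24 hr in each pair (1.19 to 0.656, 1.2 to 0.447, and 0.487 to 0.123). In *Stat5b* KI cells 7 of the 8 fell (11.2%), while *Cd5l*, at 0.45 ± 0.54, was not called. In *Stat5a* KI cells 6 fell (13.8%), and *Cd5l*, at 0.13 ± 0.55, and *Lyz2*, at −0.94 ± 0.40, were not called. *Trem2* went from 0, 2, and 1 reads at 0 hr to 29, 23, and 34 at 24 hr in *Stat5b* KI cells, and from 0 in all 3 libraries to 26, 10, and 5 in *Stat5a* KI cells. Without KI replicate 1 at 24 hr the change of *Cd5l* in *Stat5a* KI cells was a fall, by 1.49 on the log2 scale (edgeR adjusted p = 0.0186). *Csf1r* fell most of the 8 genes in all 4 groups, by 5.82 ± 0.58 in *Stat5b* WT cells and by 3.44 ± 0.44 in *Stat5b* KI cells.

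By 48 hr the *Stat5b* KI cells had 45.4% of their 0 hr RPKM of *C1qa*, 58.1% of *C1qb*, 60.5% of *C1qc*, 83.8% of *Tlr8*, 54.7% of *Lyz2*, and 36.05% of *Vcam1*. Of these, all but *Lyz2* (63%) were above their share at 4 hr, while *Csf1r* (11.6% after 20.4%) and *Cd68* (62.5% after 63.7%) were below it. The WT cells of this line had 1.04%, 5.57%, 2.1%, 0, 6.37%, and 4.88%. The shares in *Stat5a* KI cells were 26.8% for *C1qa*, 81.9% for *Cd5l*, and 6.1% for *Csf1r*, and in *Stat5a* WT cells 5.49%, 3.83%, and 1.23%. Without replicate 1 at both times, those of the *Stat5a* KI cells were 16.2%, 53%, and 4.72%. These shares are relative to all mapped reads, and the 12 T cell genes had a summed RPKM of 1954 to 2052 in *Stat5b* KI cells at 0 hr and of 2753 to 3065 at 48 hr.

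**Figure D3:**
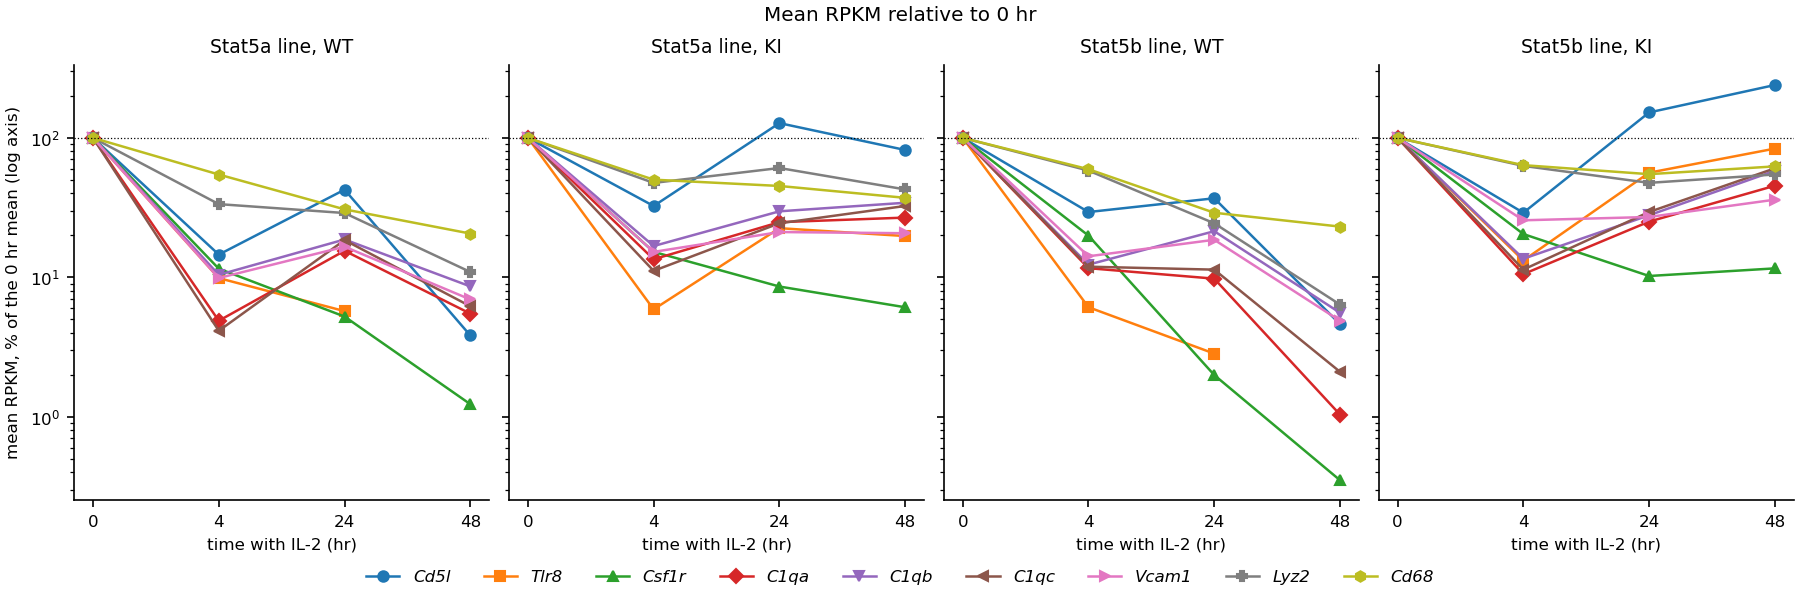
Mean RPKM of each gene as a percentage of its 0 hr mean (log axis) against time with IL-2, in WT and KI cells of the *Stat5a* and *Stat5b* lines, for the 9 members other than *Trem2*, whose 0 hr level is near or at 0. Values of 0 (*Tlr8* in WT cells at 48 hr) are not drawn. *Cd5l* reaches 239.4% in *Stat5b* KI cells at 48 hr, and *Csf1r* 11.6%.

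The difference of the KI effects was tested directly. Between 0 and 24 hr the KI effect of the *Stat5b* line was called larger for *Csf1r* alone of the 8 genes (2.37 ± 0.73 in log2 units, edgeR adjusted p = 0.01, with 3.51% of all genes called higher). The call was lost with limma, at 0.94 on log2(RPKM + 0.1), and the direction turned on log2(RPKM + 1), at −0.71. *Cd5l*, at 2.06 ± 0.87, did not pass (edgeR adjusted p = 0.063). The differences of the 8 genes ran from 0.405 (*C1qb*) to 2.37, with a median of 1.185. Of these, 3 had an unadjusted p under 0.05 in edgeR's test. For the *Stat5a* line 0 of the 8 passed edgeR's test (0.276% of all genes called higher), 0 had an unadjusted p under 0.05, and DESeq2's Wald test called 0. Between the lines, 0 of the 8 genes differed in their KI effect at 0 hr by edgeR's test (0.0707% of all genes called higher), with 0 at an unadjusted p under 0.05 and 0 by DESeq2's Wald test. At 24 hr *Csf1r* alone passed, with an effect larger in the *Stat5b* line by 2.33 ± 0.81 (edgeR adjusted p = 0.047, 1.39% called higher), and the other 7 genes had differences of 0.89 to 1.95 in the same direction that were not called. *Csf1r* passed in few of the fits that left out a library: 9 of 12 gave a count of 0, and 6 of the 8 genes passed without *Stat5a* KI replicate 1. The 2 lines have WT cells of their own and share no libraries.

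Other macrophage genes, chosen as markers with earlier results of these data known, were measured beside them, 20 shared by macrophages in general and 15 of splenic macrophages. Of these 35, 27 were higher in *Stat5b* KI cells at 0 hr, 26 at 4 hr, and 30 at 24 hr, against 7.38%, 9.2%, and 10.9% of all genes, and 0 were lower. On log2(RPKM + 1) limma called 18, 10, and 10 of them, and on log2(RPKM + 0.1) it called 22, 24, and 24. For the *Stat5a* line 6, 13, and 19 were higher and 0 lower, against 0.861%, 2.47%, and 3.21%. The count of 19 was 6 with limma on log2(RPKM + 1), 5 without KI replicate 1 and 11 without WT replicate 3 at 24 hr. The 6 at 0 hr were 0 without KI replicate 1 or without WT replicate 3, 2 without WT replicate 1, and 3 without KI replicate 2. The 13 at 4 hr were 4 without WT replicate 3, and 0 without KI replicate 1, which leaves 1 KI library. Genes called higher at 24 hr in both lines numbered 11 of the 20 shared genes and 8 of the 15 splenic genes, against 2.97% of all genes tested. Among the 11 were *Emr1* (F4/80), *Mertk*, *Cd14*, *Spi1*, *Fcgr3*, *Cybb*, *Msr1*, *Ms4a7*, *Sirpa*, and *Slc11a1*. The 8 were *Spic*, *Mrc1*, *Hmox1*, *Slc40a1*, *Nr1h3*, *Fcna*, *Stab1*, and *Treml4*. Among these, *Slc40a1*, the iron exporter ferroportin, had log2 fold changes of 4.11 ± 0.60 (*Stat5b*) and 2.14 ± 0.54 (*Stat5a*), *Hmox1*, the heme-degrading enzyme of red pulp macrophages, 3.23 ± 0.43 and 1.96 ± 0.43, and *Spic* 2.23 ± 0.47 and 1.62 ± 0.49. *Emr1* had an RPKM of 1.62 to 3.08 in *Stat5b* KI and 0.0789 to 0.202 in WT cells at 24 hr. *Cebpb*, a transcription factor of myeloid cells, was not called at any of these times (log2 fold change of −0.94 at 24 hr in the *Stat5b* line). The most abundant shared genes were *Ctss*, *Mpeg1*, and *Tyrobp*, which other leukocytes also make. *Ctss*, cathepsin S, stayed under 2-fold at 24 hr, with log2 fold changes of 0.34 (*Stat5b*) and 0.03 (*Stat5a*). The most abundant splenic genes were *Hmox1*, *Treml4*, and *Axl*, and *Axl*, at 1.71 in the *Stat5b* line, was called there and not in the *Stat5a* line, at 0.89.

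Partners of the 10 genes were followed as well: complement proteins, adaptors, ligands, other endosomal receptors, and lipid transporters. Of these 23 genes, 13, 11, and 9 were higher in *Stat5b* KI cells at 0, 4, and 24 hr, and 2, 3, and 4 in *Stat5a* KI cells, with 0 lower, beside 7.38%, 9.2%, and 10.9% of all genes in the *Stat5b* and 0.861%, 2.47%, and 3.21% in the *Stat5a* line. Of the *Stat5a* counts, those at 0 and 4 hr were both 0 without KI replicate 1, which at 4 hr leaves 1 KI library. The 2 at 0 hr were 0 without WT replicate 3, 1 without WT replicate 1, and 4 without WT replicate 2, and the 3 at 4 hr were 5 without KI replicate 2 or WT replicate 2. The 4 at 24 hr ranged from 3 to 5. At 24 hr *Syk*, the kinase below TREM2, *Apoe*, a ligand of TREM2, and the endosomal receptors *Tlr9* and *Tlr13* were higher in both lines. *Syk* had log2 fold changes of 2.73 ± 0.28 (*Stat5b*) and 1.64 ± 0.27 (*Stat5a*), and *Apoe* 3.08 ± 0.34 and 1.71 ± 0.32. *Apoe* had an RPKM of 51.3 to 74.8 in *Stat5b* KI and 6.02 to 8.54 in WT cells at 24 hr, and of 33.9 to 47.9 and 2.31 to 3.11 at 48 hr. *Syk* and *Tlr9* are also made by B cells. Of the proteases that act with C1q, *C1ra* was not called at any time, and *C1s* was higher in *Stat5b* KI cells at 0 hr (3.08) and not called at 24 hr (−1.68). Of the ligands of CSF1R, *Csf1* was higher in *Stat5b* KI cells at 0 hr (1.55) and at 4 hr (1.77) and not called at 24 hr (0.21), and *Il34* was called higher at 0 hr (3.45) and 24 hr (3.52), all as log2 fold changes. *Il34* was listed at 0 in 24 of the 47 libraries and reached an RPKM of 0.133 at most. *C1s* was listed at 0 in 8 and reached 0.2035. Nothing is read from the calls of *Il34* and *C1s*, which the counts of partners include. The most abundant partners, *Hcst*, *Itga4*, and *Itgb1*, are also made by T cells and were not called at any of these times.

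Over the 47 libraries the members followed each other, apart from *Trem2*. Pearson's r of log2 CPM was 0.762 to 0.989 (median 0.905) over the 36 pairs without *Trem2* and 0.14 to 0.635 (median 0.405) over the 9 pairs with it. The genes most like the mean of the 10, by r over the 47 libraries, were *Lrp1* (0.985), *Emr1* (0.964), *Slc40a1* (0.963), *Ear2* (0.959), *Sirpa* (0.953), *Mrc1* (0.952), *Slc11a1* (0.9496), and *Igf1* (0.946). These libraries share groups, cultures, and composition, so r is only a description. *Lrp1*, an endocytic receptor, had an RPKM of 0.748 to 1.29 in *Stat5b* KI cells at 48 hr and of 0.015 to 0.0247 in WT cells. *Igf1*, a growth factor, had 0.227 to 0.406 and 0.00224 to 0.00261. Reads of *Ear2* may be shared with near-identical *Ear* genes.

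Markers of other cells moved with the same contrasts. The 12 B cell genes were all higher in *Stat5b* KI cells at 0, 4, and 24 hr, against 7.38%, 9.2%, and 10.9% of all genes tested. In *Stat5a* KI cells 5, 6, and 12 were higher, against 0.861%, 2.47%, and 3.21%. The 5 were 0 without KI replicate 1 or WT replicate 3, 1 without WT replicate 1, 2 without KI replicate 3, and 10 without WT replicate 2, and the 6 were 1 without WT replicate 3, and 0 without KI replicate 1, with 1 KI library left. Their summed RPKM was 263 to 271 in *Stat5b* KI and 64.4 to 74.4 in WT cells at 0 hr, and 140.96 to 148.25 and 12.4 to 15.1 at 48 hr. In *Stat5a* KI cells it was 288 to 355 at 0 hr and 113.31 to 135.79 at 48 hr, and in the WT cells 65.3 to 191 and 14.7 to 43.3. The most abundant was *Cd79a*, at 44.1 to 45.1 in *Stat5b* KI and 2.54 to 3.18 in WT cells at 48 hr. Thus B cell transcripts, unlike *Cd5l* and *C1qa*, were lower at 48 than at 24 hr in *Stat5b* KI cells. Macrophage genes were not alike in this. In these cells the splenic macrophage genes had a summed RPKM of 22.5 to 37 at 24 hr and 17 to 28.1 at 48 hr. The shared macrophage genes had 213.9 to 302.5 and 263.5 to 314.1, and the 10 members 45.4 to 88.1 and 68.9 to 109.4. The ranges at 24 and 48 hr overlapped for each of these lists. The median of *Emr1* went from 2.13 to 1.82. Of the 9 erythroid genes 9, 9, and 8 were higher in *Stat5b* KI cells at 0, 4, and 24 hr, and 0, 1, and 0 in *Stat5a* KI cells, against the same shares of all genes. Their summed RPKM at 48 hr was 110.98 to 206.43 in *Stat5b* KI, 4.79 to 8.44 in *Stat5b* WT, 18 to 22.6 in *Stat5a* KI, and 6.5 to 8.1 in *Stat5a* WT cells. The globin genes *Hbb-bs*, *Hba-a1*, and *Hba-a2* were the most abundant, the last a pair whose near-identical copies could share reads.

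Of all genes tested, 7.38%, 9.2%, and 10.9% were called higher in *Stat5b* KI cells at 0, 4, and 24 hr, and 0.604%, 1.23%, and 5.77% lower. In *Stat5a* KI cells the shares were 0.861%, 2.47%, and 3.21% higher and 0.18%, 4.16%, and 1.24% lower. These shares stand beside every count of calls in this paragraph. Of the 10 neutrophil genes tested, 4, 6, and 8 were higher in *Stat5b* KI cells at 0, 4, and 24 hr and 0 in *Stat5a* KI cells. Their summed RPKM in *Stat5b* KI cells went from 47.1 to 66.1 at 0 hr to 2.83 to 4.39 at 48 hr, while that of the 10 macrophage genes went from 134.2 to 195.74 to 68.87 to 109.42, and 1 to 3 of the 11 genes were then at 0. *S100a9*, the most abundant, was at 20.8 to 33.5 at 0 hr and 0.354 to 1.45 at 48 hr in these cells. Of the 9 dendritic cell genes 4, 4, and 6 were higher in *Stat5b* KI cells and 0, 0, and 3 in *Stat5a* KI cells, led by *Siglech*, *Flt3*, and *Itgax*, and their sum went from 86.1 to 124.8 at 0 hr to 20 to 23.1 at 48 hr in *Stat5b* KI cells. Of the 9 monocyte genes 5, 3, and 5 were higher in *Stat5b* KI cells, with 1 lower at 24 hr, and 1, 1, and 2 in *Stat5a* KI cells, but their most abundant members *Ly6c2* and *Plac8* are also made by activated CD8+ T cells. Of the 11 endothelial and stromal genes tested 4, 4, and 3 were higher in *Stat5b* KI cells, with 1 lower at 24 hr, and 0, 0, and 2 in *Stat5a* KI cells. *Pecam1* was the most abundant, followed by *Cdh5*, the endothelial cadherin, at 0.223 to 0.346 in *Stat5b* KI cells at 48 hr. The whole endothelial and stromal list had a summed RPKM of 35.4 to 43 in these cells and of 16.65 to 18.3 in the WT cells. Of the 6 NK cell genes 3, 2, and 2 were lower in *Stat5b* KI cells and 1, 1, and 2 in *Stat5a* KI cells. Of the 4 CD4 T cell genes 1, 1, and 2 were higher in *Stat5b* KI cells, and in *Stat5a* KI cells 1 was lower at 4 hr and 1 higher at 24 hr, and of the 12 T cell genes 0 were higher in either line, with 1 lower at 4 hr in the *Stat5b* line. Many of these small counts moved with a library left out: in *Stat5b* KI cells at 0 hr those of dendritic cell genes ranged from 0 (without KI replicate 1) to 6, those of neutrophil genes from 1 (without WT replicate 1) to 4, and those of monocyte genes from 2 (without KI replicate 1) to 5. In *Stat5a* KI cells at 24 hr the dendritic cell genes ranged from 0 (without WT replicate 3) to 6. The share of mapped reads on the longest transcripts was 68.7% to 72.7% in *Stat5b* KI and 70.7% to 74.1% in WT cells at 0 hr, and 72.6% to 78.5% and 83.2% to 84.4% at 48 hr. The part of the other cell types and of this share in the differences of the macrophage genes was not tested.

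**Figure D4:**
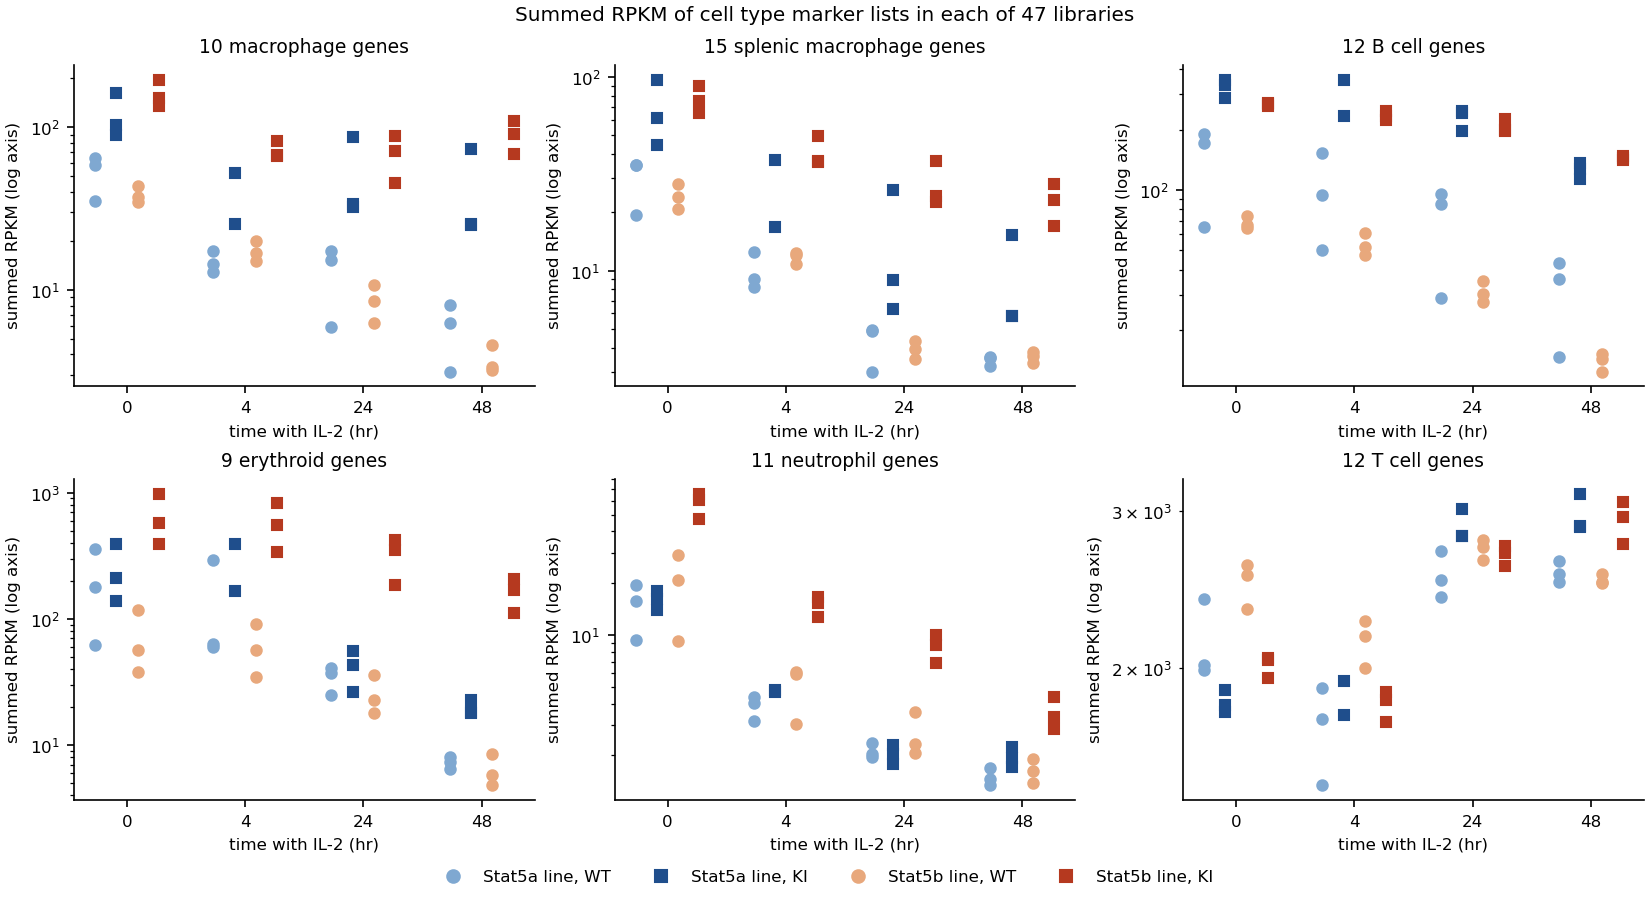
Summed RPKM (log axis) of 6 lists of marker genes in each of the 47 libraries against time with IL-2, with circles for WT and squares for KI cells of the *Stat5a* line (blue) and the *Stat5b* line (orange and red). In *Stat5b* KI cells the 10 macrophage genes stand at 68.9 to 109.42 at 48 hr, against 3.21 to 4.59 in WT cells, and the 12 T cell genes stand at 1481 to 3133 over all groups.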

How the data were processed

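RNA was measured by RNA-seq in 48 libraries. The authors mapped single-end reads to mm10/GRCm38 with TopHat2 2.0.11 and Bowtie2 2.2.6 (submitters' processing notes) and deposited a raw count for each of 31682 RefSeq transcripts per library. The authors also deposited RPKM, made from these counts, transcript length, and mapped reads. The counting program and the use of strand are not given in the sources used here. The longest transcript of each symbol was used, in 47 libraries. The shallow *Stat5a* KI library (4 hr, replicate 3) was left out. A count of 3 was taken as the floor. No columns of other samples were found (0).

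Counts were fitted in R 4.3.3 with edgeR 4.0.16 (TMM, filterByExpr with a minimum count of 10, 1 mean per group, quasi-likelihood test) over 15566 genes, with p-values adjusted by Benjamini-Hochberg. A call needed an adjusted p up to 0.05 and a change of 2-fold or more. P-values measure the spread between libraries, which may be technical. On simulated counts of the *Stat5b* comparison at 24 hr (14736 genes), the fit recovered, by adjusted p alone, 68% of 100 genes changed 2-fold and 100% of 100 genes changed 4-fold. The simulation gave every gene the same spread and changed only genes well covered by reads in most libraries. These shares therefore cannot be taken as those for the members, and nothing is read from them about genes not called. The 10 genes and all marker lists were chosen with earlier results of these data known. Genes named are the 10 members, the 8 genes most like them over the libraries, the 3 most abundant of each list, and genes of 3 lists called at 24 hr in both lines, except 1 that is not reported here, with others given as examples. *Cd8a*, *Cd3e*, *Cebpb*, *C1ra*, *C1s*, *Csf1*, *Il34*, and *Lyz1* are outside this rule and were named after their values were seen. Replicate numbers were taken to pair libraries only for *Stat5a* WT cells at 24 and 0 hr, where the correlations of same-numbered deviations were 0.206, 0.273, and 0.419. Within groups, every pair of replicates differed beyond sampling noise (chi-square of 4.83 or more per gene). Alternatives were DESeq2 1.42.0 and its size factors, mapped reads as library size, no filter, limma 3.58.1 on log2(RPKM + 1) and log2(RPKM + 0.1) over genes that reached an RPKM of 1 in 3 or more libraries, only the groups compared, another transcript, all 48 libraries, a replicate block, and each library left out. Promoter windows are from RefSeq (GRCm38.p6). Figures used matplotlib 3.10.9.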

Additional observations from a re-analysis of the deposited data

Results flagged for a closer look

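Of the 8 genes other than *Trem2* and *Tlr8*, the difference itself passed the test between times or between lines for 1, *Csf1r*. In the *Stat5b* line its KI effect was larger at 24 than at 0 hr by 2.37 (log2, edgeR adjusted p = 0.01). This call held in the 12 fits with 1 library left out, but it was lost with limma on log2(RPKM + 0.1), at 0.94, and the value turned to −0.71 with limma on log2(RPKM + 1). At 24 hr its effect in the *Stat5b* line was larger than that in the *Stat5a* line by 2.33 (edgeR adjusted p = 0.047), and this call was lost in 9 of 12 fits with 1 library left out and in 5 of the other alternatives. *Trem2* and *Tlr8* passed the filter on low counts through the groups in which they were high, so no result of such a test is read for them. Counts of members in the next section include their calls. Each group had 3 or fewer libraries, and single libraries were not tested as outliers within their groups.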

How the results depend on the processing

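The counts of members below include *Trem2* and *Tlr8*, whose calls are not used as support. Counts of members called in the *Stat5b* line at 0 hr stayed within 1.5 times under the alternatives run, as did the 10 members called at 24 hr. Small counts of markers of other cells at 0 hr moved further with a library left out, as given above. With limma, 2 of the 10 genes were too low to be tested. The members called in the *Stat5a* line at 0 hr were 0, but 4 with limma on log2(RPKM + 1) and 7 with the replicate block. At 4 hr they were 6, but 1 with limma on log2(RPKM + 1), 0 with only the groups compared, and 1 without the 2 libraries that stood apart (*Stat5a* WT replicate 3 at 0 hr and replicate 2 at 4 hr, an alternative chosen after seeing the data). At 24 hr they were 9, but 2 and 4 with limma on log2(RPKM + 1) and log2(RPKM + 0.1), 3 with only the groups compared, and 5 with all 48 libraries. In the *Stat5b* line limma on log2(RPKM + 1) gave 5 in place of 8 at 4 hr, and limma on log2(RPKM + 0.1) gave 5 in place of 8 for 24 against 0 hr in KI cells.

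Of the 35 other macrophage genes, the 6 of the *Stat5a* line at 0 hr became 3 with either form of limma, 0 with only the groups compared, 0 with all 48 libraries, 15 with the replicate block, and 1 without the 2 libraries that stood apart. The 13 at 4 hr became 21 with mapped reads as library size, 5 and 20 with the 2 forms of limma, and 0 with only the groups compared, and the 19 at 24 hr became 6 with limma on log2(RPKM + 1). In the *Stat5b* line limma on log2(RPKM + 1) gave 10 in place of 26 at 4 hr and 10 in place of 30 at 24 hr.

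For the difference between the lines at 24 hr the count of 1 became 0 with mapped reads as library size, both forms of limma, only the groups compared, and all 48 libraries, and 5 with the replicate block. For 24 minus 0 hr, 0 of the 8 genes other than *Trem2* and *Tlr8* were called in the *Stat5a* line. *Csf1r* alone of them was called in the *Stat5b* line. With *Trem2* and *Tlr8*, from whose calls nothing is read and which limma did not test, the counts were 1 and 3. The 1 became 0 with mapped reads, DESeq2's Wald test, both forms of limma, and only the groups compared. It also became 0 with all 48 libraries and without the 2 libraries that stood apart. The 3 became 0 with both forms of limma, 7 with only the groups compared, and 5 with the replicate block. The median log2 fold change at 48 hr became 1.46 (*Stat5a*) and 2.68 (*Stat5b*) with limma on log2(RPKM + 1), and 5.22 (*Stat5b*) on log2(RPKM + 0.1), which by construction shrinks the change of low genes. The rise of the KI effect on *Csf1r* in the *Stat5b* line turned to −0.71 with limma on log2(RPKM + 1).

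With each library left out in turn (which at 4 hr can leave 1 *Stat5a* KI library, assumed to vary like the other groups), members called ranged from 0 to 0, 0 to 6, and 1 to 10 in the *Stat5a* line at 0, 4, and 24 hr and from 8 to 8, 5 to 8, and 10 to 10 in the *Stat5b* line. The other macrophage genes ranged from 0 to 8, 0 to 19, and 5 to 24, and from 23 to 28, 22 to 26, and 27 to 31. For 24 against 0 hr the ranges were 8 to 9 (*Stat5a* WT), 8 to 10 (*Stat5a* KI), 8 to 9 (*Stat5b* WT), and 6 to 8 (*Stat5b* KI), for the difference between lines 0 to 0 at 0 hr and 0 to 6 at 24 hr, for 24 minus 0 hr 0 to 1 (*Stat5a*) and 2 to 4 (*Stat5b*), and for the medians at 48 hr 2.56 to 4.15 and 6.71 to 7.57. The change of *Cd5l* from 0 to 24 hr in *Stat5a* KI cells ranged from −1.49 (without KI replicate 1 at 24 hr) to 0.59. Where not stated, the cause was not tested.

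Of 160 log2 fold changes of members, 158 kept direction and, where tested, call with DESeq2's size factors, 158 with its Wald test, 159 without a filter, 159 with another transcript, and 154 with mapped reads as library size, and 94.4% with all 48 libraries. Of the values that the other alternatives gave, 86.7% and 70.3% were kept with limma on log2(RPKM + 0.1) and log2(RPKM + 1), 85.6% with only the groups compared, 87.1% with the block, 94.3% without the 2 libraries that stood apart, and 92.6% with a library left out. Of those not kept, 1 with limma on log2(RPKM + 1) and 1 with a library left out changed direction as given above. On TMM-scaled CPM, every count of genes with all KI above all WT libraries was unchanged. Where the numbers pair libraries (*Stat5a* WT, 24 against 0 hr) the block changed no count by over 1.5 times. In the other comparisons the correlations ran from −0.223 to 0.195 and were not over 0.1 for every number, so the numbers were not taken to pair libraries. Those of *Stat5a* KI cells at 24 and 0 hr were all positive (0.195, 0.0764, and 0.158), and whether a number follows a mouse over time is not given in the labels. Lists at 48 hr were not recounted. Depth limits *Trem2* and *Tlr8*, for which WT libraries held 0 to 3 reads at 24 and 48 hr, and *C1qa*, *C1qc*, and *Csf1r* in *Stat5b* WT cells at 48 hr, with 4, 9, and 6 reads in all.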
